A study of Mus musculus with 2 samples.

Results

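The 41 genes described here are expressed in S phase and around its start, and encode proteins that license, copy, repair and repackage DNA. They were taken as a list of gene symbols, and all 41 were found among the 27998 gene identifiers of the deposited tables. The cells were mouse leukaemia cells driven by the fusion protein MLL-AF9 and carrying the nuclease Cas9, grown in RPMI medium with serum and mouse interleukin 3 (IL-3), a myeloid growth factor. In the Renilla library the cells carried a control guide RNA against Renilla luciferase, a gene that mouse cells do not have; in the Jumonji library they carried a guide against the Jumonji domain, the catalytic part of the histone demethylase Jmjd1c. Both groups share the leukaemia, Cas9 and the culture, and each is 1 library of 1 guide, with no statement of clones or of the time since the guide was delivered. No test between the groups was therefore possible, and every interval below covers counting error only.

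RNA was counted in single cells from the 3' end of transcripts with unique molecular identifiers (UMIs), on the 10x Genomics Chromium platform (3' kit v2). After barcodes with under 500 genes or over 10% mitochondrial UMIs were left out, 608 Renilla cells with 14418743 UMIs and 575 Jumonji cells with 12809661 UMIs remained, with medians of 23528 and 22123 UMIs per cell, and 0 cell barcodes were shared. Jmjd1c itself was counted at 140 counts per 1000000 UMIs (CPM) in Renilla cells and 112 CPM in the Jumonji library, a log2 ratio of -0.33 (95% counting interval -0.42 to -0.23); 3' counts do not show whether the domain was edited. Primary granule genes, which mark immature myeloid cells, summed to 5654 and 2511 CPM. Of the T and NK cell list, 6 of the 8 genes found had no UMI in either library, Cd3e, Cd3d and Cd3g among them, and the list summed to 27.3 and 27.9 CPM, with 1 gene reaching 50 UMIs. Of the B cell list 3 of 7 genes were at 0, none reached 50 UMIs, and the list summed to 3.19 and 1.72 CPM. Late myeloid genes, which granulocytes and monocytes switch on as they mature, summed to 500.5 CPM in Renilla cells and 2315 CPM in the Jumonji library, and this difference runs alongside every comparison of the libraries below.

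As background, cells prepare for replication in G1 by loading the MCM helicase onto origins with the help of Cdc6 and Cdt1, a step called licensing. Cyclin E with its kinase then releases E2F transcription factors from the retinoblastoma protein, and E2F drives a large set of genes for helicase activation, DNA synthesis, nucleotide supply, fork protection and histone deposition. In myeloid cells this programme belongs to dividing progenitors and is shut off as cells leave the cycle during terminal maturation.

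The promoters are shown because E2F sites are the shared element by which these genes are known to be switched on together. RefSeq promoter windows, from 250 bases before to 50 bases after the annotated start on GRCm38.p6, were matched by symbol for 31 of the 41 genes; Gins2, Tipin, Dscc1, Usp1, Atad2, Mcm4, Rfc2, Ccne2, Gmnn and Exo1 had no entry. The sequences below are the 250 bases before the start, read 5' to 3' on the gene's strand, with matches to the E2F-like motif TTTNGCGC on either strand in capitals. Mcm6 and Mcm5, subunits of the MCM helicase, had the most matches; Dtl, a substrate receptor that targets Cdt1 for destruction, and Pola1, the catalytic subunit of DNA polymerase alpha, had 1 each; Rad51ap1, which acts in DNA repair, had none and is shown for contrast.
Mcm6: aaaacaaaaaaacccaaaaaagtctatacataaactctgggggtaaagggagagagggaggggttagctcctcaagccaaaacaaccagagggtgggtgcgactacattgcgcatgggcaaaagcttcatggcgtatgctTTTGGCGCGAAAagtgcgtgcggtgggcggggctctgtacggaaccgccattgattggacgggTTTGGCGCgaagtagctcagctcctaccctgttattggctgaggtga
Mcm5: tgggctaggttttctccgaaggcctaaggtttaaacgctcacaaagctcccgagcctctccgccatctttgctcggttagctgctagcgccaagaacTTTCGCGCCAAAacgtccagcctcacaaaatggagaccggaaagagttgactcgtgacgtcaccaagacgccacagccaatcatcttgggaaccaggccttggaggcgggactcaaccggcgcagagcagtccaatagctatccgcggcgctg
Dtl: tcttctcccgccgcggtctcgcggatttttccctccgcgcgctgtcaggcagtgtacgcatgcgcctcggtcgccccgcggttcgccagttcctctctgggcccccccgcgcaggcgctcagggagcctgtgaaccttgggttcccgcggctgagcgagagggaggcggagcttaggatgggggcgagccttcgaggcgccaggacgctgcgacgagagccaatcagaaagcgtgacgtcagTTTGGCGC
Pola1: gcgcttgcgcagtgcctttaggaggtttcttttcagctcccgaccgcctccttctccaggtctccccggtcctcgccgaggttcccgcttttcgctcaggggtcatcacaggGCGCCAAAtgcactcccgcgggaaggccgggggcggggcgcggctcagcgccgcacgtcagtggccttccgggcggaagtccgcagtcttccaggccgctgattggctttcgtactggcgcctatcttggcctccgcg
Rad51ap1: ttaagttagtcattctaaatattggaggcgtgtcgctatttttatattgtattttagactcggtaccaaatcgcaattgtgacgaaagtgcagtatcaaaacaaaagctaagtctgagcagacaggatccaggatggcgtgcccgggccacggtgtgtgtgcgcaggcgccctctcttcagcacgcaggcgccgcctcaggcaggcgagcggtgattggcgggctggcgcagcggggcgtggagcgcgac

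The Mcm6 stretch lies at chr1:128359706-128359955 on the minus strand, and its matches begin 110, 106 and 47 bases before the start (positions -110, -106 and -47), the first and the second overlapping on opposite strands. The Mcm5 stretch lies at chr8:75109259-75109508 on the plus strand, with an overlapping pair of matches at -153 and -149. The Dtl stretch lies at chr1:191575545-191575794 on the minus strand, and its match at -8 ends next to the start. The Pola1 stretch lies at chrX:93632156-93632405 on the minus strand with its match at -138, and the Rad51ap1 stretch at chr6:126939588-126939837 on the minus strand. Over whole windows, TTTNGCGC was present on either strand in 7 of the 31 genes (22.6%: Cdt1, Clspn, Dtl, Mcm5, Mcm6, Pola1 and Uhrf1), and in 1.57% of all 27025 genes with a window. TTTGAA, the core of the CHR element of late cell cycle genes, was present in 6 of 31 (19.4%) and in 20.2% of all genes, and CCAAT in 19 of 31 (61.3%) and in 41.1%. The E2F-like words were found in a larger share of these promoters than of all promoters and the CHR-like word in a like share. These matches describe letters in a window, and binding was not measured.

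Between the libraries, the level of the whole set was close to equal. The 41 genes summed to 47944 UMIs, or 3325 CPM, in Renilla cells and to 40101 UMIs, or 3131 CPM, in the Jumonji library. Their log2 ratios, Jumonji over Renilla, ran from -0.71 to 0.49 with a median of -0.07, beside a median of -0.06 over all 9922 genes with at least 50 UMIs. All 41 passed that minimum, with 240 to 10112 UMIs each. By size, 0 of the 41 exceeded 1.5-fold on the Jumonji side, against 11% of all genes, and 3 (Ung, Cdca7 and Cdt1) on the Renilla side, being lower with the Jumonji guide, against 9.04%. With 1 library per group no p was computed for these counts. The counting interval lay below 0 for 16 members (30.1% of all genes) and above 0 for 7 (24.8%), and it held 0 for 18. Intervals below 0 thus made up a larger share, and intervals above 0 a smaller share, of the members than of all genes, while the median of the set was near that of all genes. Intervals narrow as counts rise, and the genes of the background, with 50 UMIs or more, were not matched to the members for counts. The 3 lower calls depend on how cells of different late myeloid score are pooled: without the cells of high score, as defined further on, 0 members passed 1.5-fold downwards (Ung -0.48, Cdca7 -0.50 and Cdt1 -0.32) and 1, E2f8 at 0.59, upwards. The ratios within each range of the score are given with the maturation results. With the 3 ranges of that score given equal weight, 0 were lower and 5 higher, in which 30 Renilla cells count for a whole range. The share over all genes was not taken for either pooling, so these counts are not set against a background.

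**Figure D1:**
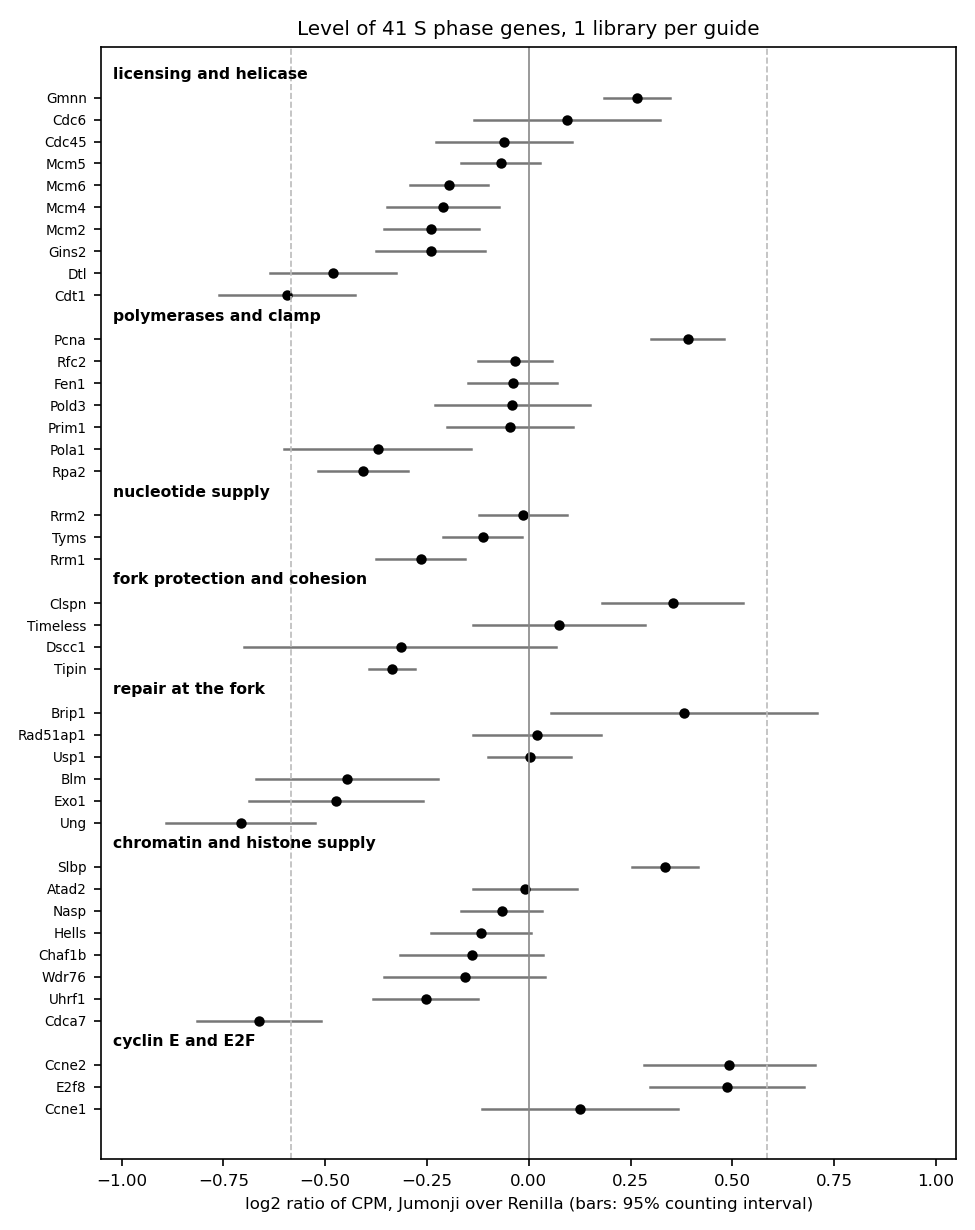
Log2 ratio of CPM, Jumonji over Renilla, for each of the 41 genes, grouped by role; points are the ratio of UMIs summed over cells of 1 library each, bars the 95% counting interval, and dashed lines mark a 1.5-fold difference. Ung, Cdca7 and Cdt1 lie beyond the lower line at -0.71, -0.66 and -0.59, none lies beyond the upper line, and Ccne2 and E2f8 are highest at 0.49 each.

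Among the licensing and helicase genes, 8 of 10 ratios were below 0, with a median of -0.20. Cdt1, the licensing factor that loads MCM and is destroyed once replication begins, gave 798 UMIs (55.3 CPM, 95% counting interval 51.6 to 59.3) in Renilla cells and 470 UMIs (36.7 CPM, 33.4 to 40.2) in the Jumonji library, a log2 ratio of -0.59 (-0.76 to -0.43). The annotated Cdt1 gene is at chr8:122568015-122573554 (GENCODE M21, GRCm38). Dtl, which directs that destruction, was counted at 60.5 and 43.4 CPM, a log2 ratio of -0.48 (-0.64 to -0.33). Gmnn, the inhibitor that binds Cdt1 after S phase has begun, went the other way: it was counted at 167 CPM in Renilla cells and 200.2 CPM in the Jumonji library, a log2 ratio of 0.26 (0.18 to 0.35). The licensing factor and its inhibitor thus lay on opposite sides, and for each of these 3 genes the intervals of the libraries did not overlap. The helicase subunits Mcm6 (141 and 123 CPM) and Mcm5 (132 and 126 CPM) had ratios of -0.20 and -0.07, Mcm2 and Mcm4 of -0.24 and -0.21, and the helicase partners Gins2 and Cdc45 of -0.24 and -0.06. Cdc6, which works with Cdt1 at origins, was at 22.8 and 24.4 CPM, and its interval held 0.

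The polymerase and clamp genes had a median ratio of -0.04, with Pcna apart from the rest. Pcna, the sliding clamp that tethers polymerases to DNA, was counted at 131 CPM (126 to 137) in Renilla cells and 172 CPM (165 to 180) in the Jumonji library, a log2 ratio of 0.39 (0.30 to 0.48). Rfc2, a subunit of the loader that places the clamp, was nearly equal at 147 and 143 CPM, as were Fen1, the flap nuclease (103 and 100.1 CPM), Prim1, the primase subunit (51.5 and 49.9 CPM), and Pold3, a subunit of polymerase delta (34.2 and 33.3 CPM). Lower in the Jumonji library were Rpa2, a subunit of the single-strand binding protein, at 115 and 86.9 CPM (log2 ratio -0.41), and Pola1 at 26.8 and 20.8 CPM (-0.37). The clamp and this loader subunit thus had different ratios, with intervals that did not overlap. Of the nucleotide supply genes, Tyms, which makes thymidylate, was at 131 and 121 CPM and the ribonucleotide reductase subunits Rrm1 and Rrm2 were at 111 and 92.5 and at 102 and 101 CPM. The ratios were -0.11, -0.27 and -0.01.

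Of the fork protection genes, Tipin gave the most UMIs of the set, 5935 and 4177, with 412 CPM in Renilla cells and 326 CPM in the Jumonji library (log2 ratio -0.34, -0.39 to -0.28). Its partner Timeless, with which it forms a complex at forks, was at 26.9 and 28.3 CPM, and its interval held 0. Clspn, the adaptor that passes the stalled-fork signal to the kinase Chk1, was at 35.9 and 45.8 CPM (0.35, 0.18 to 0.53), and Dscc1, a cohesion loader subunit, was the least counted member with 140 and 100 UMIs. The intervals of the partners Tipin and Timeless did not overlap.

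The repair genes held the lowest ratio of the set. Ung, the uracil glycosylase that removes uracil from new DNA, at chr5:114130386-114139323, gave 704 UMIs (48.8 CPM, 45.3 to 52.6) in Renilla cells and 383 UMIs (29.9 CPM, 27 to 33) in the Jumonji library. Its log2 ratio was -0.71 (-0.89 to -0.53). Exo1, a mismatch repair exonuclease, and Blm, a helicase that unwinds recombination intermediates, were lower as well, at 32.2 and 23.2 CPM and at 29.1 and 21.4 CPM. Usp1, the deubiquitinase that acts on the clamp, was equal at 114 CPM in both libraries, and Rad51ap1 was at 48.8 and 49.4 CPM. Brip1, a helicase of the Fanconi pathway, was on the higher side at 10.2 and 13.3 CPM, with an interval from 0.05 to 0.71.

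Among the 8 chromatin and histone supply genes, 7 ratios were below 0. Cdca7, which recruits the remodeller Hells to chromatin, at chr2:72476159-72486893, gave 999 UMIs (69.3 CPM, 65.1 to 73.7) in Renilla cells and 561 UMIs (43.8 CPM, 40.2 to 47.6) in the Jumonji library, a log2 ratio of -0.66 (-0.81 to -0.51). Hells itself was at 83.2 and 76.7 CPM, with an interval that held 0, and Uhrf1, which carries DNA methylation through replication, was at 80.7 and 67.7 CPM (-0.25). Slbp, the stem-loop binding protein that histone messages need, was the exception, at 163 CPM (156 to 170) and 205 CPM (198 to 213), a log2 ratio of 0.33 (0.25 to 0.42). Nasp, a histone chaperone, was at 125 and 119 CPM, and the histone chaperone subunit Chaf1b, the chromatin ATPase Atad2 and Wdr76 had ratios of -0.14, -0.01 and -0.16, each with an interval that held 0.

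All 3 genes of the cyclin E and E2F group had ratios above 0, the only group of which this was so. Ccne2 and Ccne1, the E cyclins, were at 23.3 and 32.8 CPM (0.49, 0.28 to 0.70) and at 20.2 and 22 CPM (0.13, -0.12 to 0.37). E2f8, a repressor E2F that is itself made in S phase and shuts E2F targets down, was at 29 and 40.6 CPM (0.49, 0.30 to 0.67).

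Because the libraries can differ in how many cells are in S phase, the genes were set side by side within cells that scored high for the rest of the set. Every cell was thinned to 10000 UMIs and scored by the other members, and the highest-scoring 1 of 3 equal parts over both libraries was kept. By the score of all members, 206 of 579 Renilla cells (35.6%, exact 95% interval 31.7 to 39.6) and 160 of 520 Jumonji cells (30.8%, 26.8 to 34.9) were in it. With each member left out of its own choice of cells, 31 of 41 ratios were above 0 and the median was 0.17. In this choice 5 members exceeded 1.5-fold upwards with the Jumonji guide and 1 downwards. All genes were counted only in the cells chosen by all members, where 11.7% were higher and 9.19% lower. In those same cells 4 of 41 members were higher and 1 lower, so the higher count was near the share of all genes. Because the cells were chosen by the level of the set, these ratios are descriptions of balance within it.

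Ung went from 109 CPM in such Renilla cells to 61.5 CPM in such Jumonji cells, a log2 ratio of -0.83 (-1.19 to -0.48), so it was lower among the high-scoring cells as well. Cdca7 (97.1 and 68.1 CPM) and Dtl (88.5 and 63.3 CPM) likewise had intervals below 0, at -0.51 and -0.48. Cdt1, at 69.1 and 57.2 CPM, had a ratio of -0.27 with an interval that held 0. On the higher side, E2f8 was at 39.9 and 74.1 CPM (0.89, 0.47 to 1.32), Ccne2 at 58.2 and 94.3 CPM (0.70, 0.34 to 1.06), Slbp at 222 and 341 CPM (0.62) and Pcna at 203 and 308 CPM (0.60). Brip1, at 16.4 and 25.2 CPM, was the fifth, with an interval that held 0. The ratio was higher here than over all cells for 39 of the 41 members. Choosing cells by the score of the other members moves these ratios together, so this count is not a separate result.

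**Figure D2:**
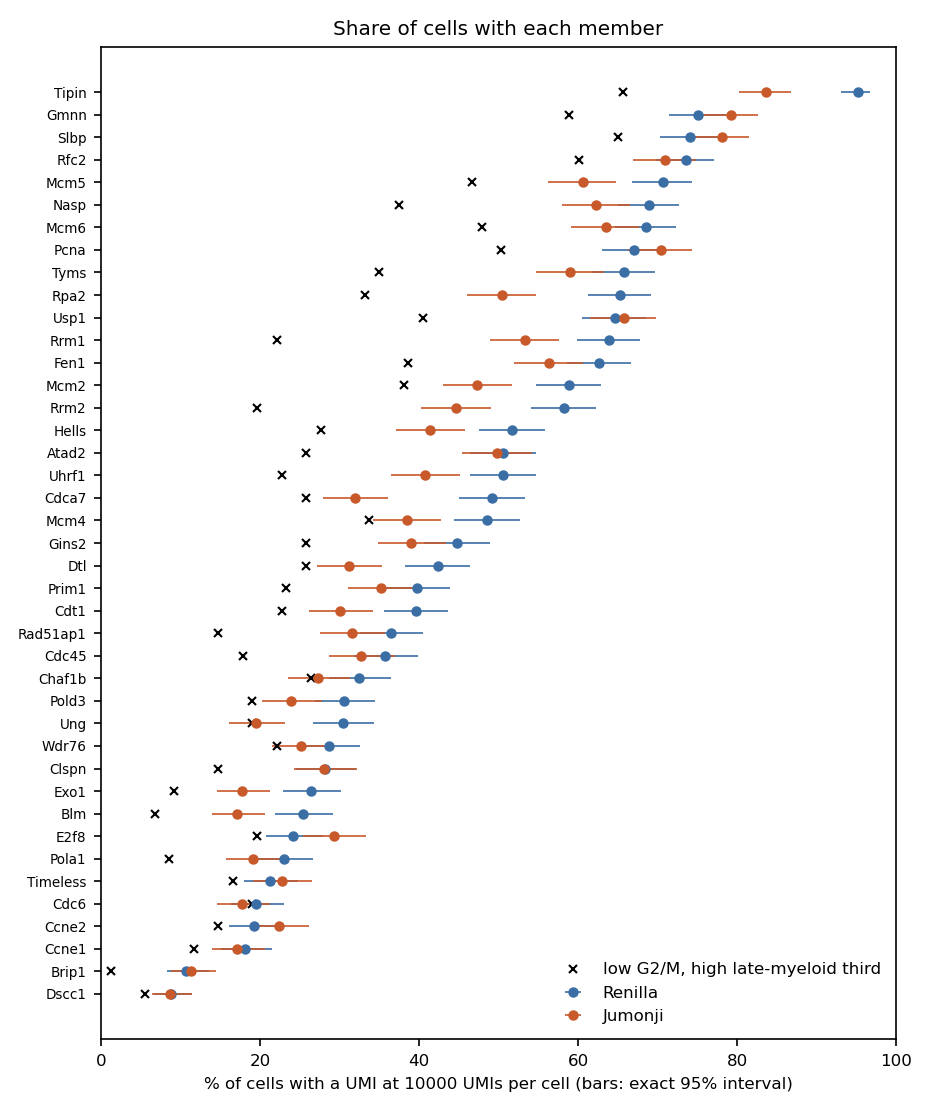
Share of cells with at least 1 UMI of each gene after every cell was thinned to 10000 UMIs, in 579 Renilla and 520 Jumonji cells; bars are exact 95% intervals, and crosses give the share in 163 cells of low G2/M score and high late myeloid score. Tipin is highest at 95.2% and 83.7%, and Dscc1 lowest at 8.81% and 8.65%.

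At equal depth the median share of cells with a UMI was 44.7% in Renilla cells and 35.2% in the Jumonji library, and it was 68.6% and 53.4% without thinning. Thinning left out 29 Renilla and 55 Jumonji cells with under 10000 UMIs. The share was lower in the Jumonji library for 33 of 41 members, and for 15 of them the intervals did not overlap: Mcm2, Mcm4, Mcm5, Cdt1, Dtl, Rpa2, Rrm1, Rrm2, Tipin, Ung, Exo1, Blm, Uhrf1, Hells and Cdca7. Shares were not counted over all genes, so whether these counts are particular to the members was not tested. Tipin was found in 551 of 579 Renilla cells (95.2%) and 435 of 520 Jumonji cells (83.7%), and Rrm2 in 58.2% and 44.6%. Rrm2 had equal CPM in both libraries, and in the Jumonji library a smaller share of cells held a UMI of it. Among the 8 genes with a higher share were Gmnn (75.1% and 79.2%), Slbp (74.1% and 78.1%), Pcna (67% and 70.4%) and E2f8 (24.2% and 29.2%), all with overlapping intervals.

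As a reference for RNA in cells with little cycling, shares were taken in 163 cells of high late myeloid score in the lowest of 3 parts of the G2/M score, of which 147 came from the Jumonji library. Their median depth was 17277 UMIs before thinning, beside 24888 in the other cells. The median share there was 23.3%, from 1.23% to 65.6%. This class can hold cells at the start of S phase, so its shares are an upper reference and not a zero level. Cdc6 in the Jumonji library, at 17.7% beside 19% in the class, was below it and Ung there was close to it at 19.4%, so these shares alone do not set either gene apart from that class. Along the cell cycle order described further on, Cdc6 in the Jumonji library stood at 58.5 and 73.8 CPM in bins 2 and 3 and at 1.54 CPM in bin 8.

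Across cells the 41 genes varied together. For each gene, its log level was correlated with the mean score of the other members across thinned cells, in each library apart; cells share a library and a depth, and these values are descriptions. The median correlation was 0.31 over 579 Renilla cells and 0.44 over 520 Jumonji cells, beside 0.002 and 0.01 for all 9922 genes against the full set. Of the 41, 32 in Renilla cells and 30 in the Jumonji library were above the 99th percentile of all genes. Tipin was the most closely tied at 0.53 and 0.68, followed by Rrm2 (0.45 and 0.65) and Pcna (0.49 and 0.59). The weakest were Blm (0.05 and 0.14), Brip1 (0.06 and 0.23) and Pold3 (0.08 and 0.22). Ung and Ccne1 were the members whose correlation was higher in the Renilla library, at 0.49 against 0.42 and 0.43 against 0.41.

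Pairs of members correlated less: over 820 pairs the median was 0.11 in Renilla cells and 0.19 in the Jumonji library. The closest pairs were Mcm5 with Tipin (0.32 and 0.44), Pcna with Tipin (0.30 and 0.45) and Rrm2 with Tipin (0.31 and 0.42). Of the 50 genes most tied to the set by mean correlation, 25 were members. The closest genes outside it were Dut, which keeps uracil out of DNA by hydrolysing dUTP (0.51 and 0.67), Lig1, the ligase that joins Okazaki fragments (0.41 and 0.60), Stmn1, a microtubule regulator (0.37 and 0.60), 2810417H13Rik (0.36 and 0.58) and Dek, a chromatin protein (0.33 and 0.56).

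To order the genes within the cycle, the cells of each library were placed on a circle by the angle between their member score and a score of 52 G2/M genes, and cut into 8 bins of equal cell number. The gene in question was left out of its own order. Its position is the circular mean of its level over the bins, in percent of the ordered cells, and its concentration runs from 0 (even over all bins) to 1 (all in 1 bin). All 41 genes were highest in bins 2 to 4 in both libraries, while G2/M genes summed highest in bin 6, at 9659 CPM in Renilla cells and 11314 CPM in the Jumonji library. The members' positions followed in part from the way the circle was built, since the other members set it; the order among them did not use the gene itself.

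**Figure D3:**
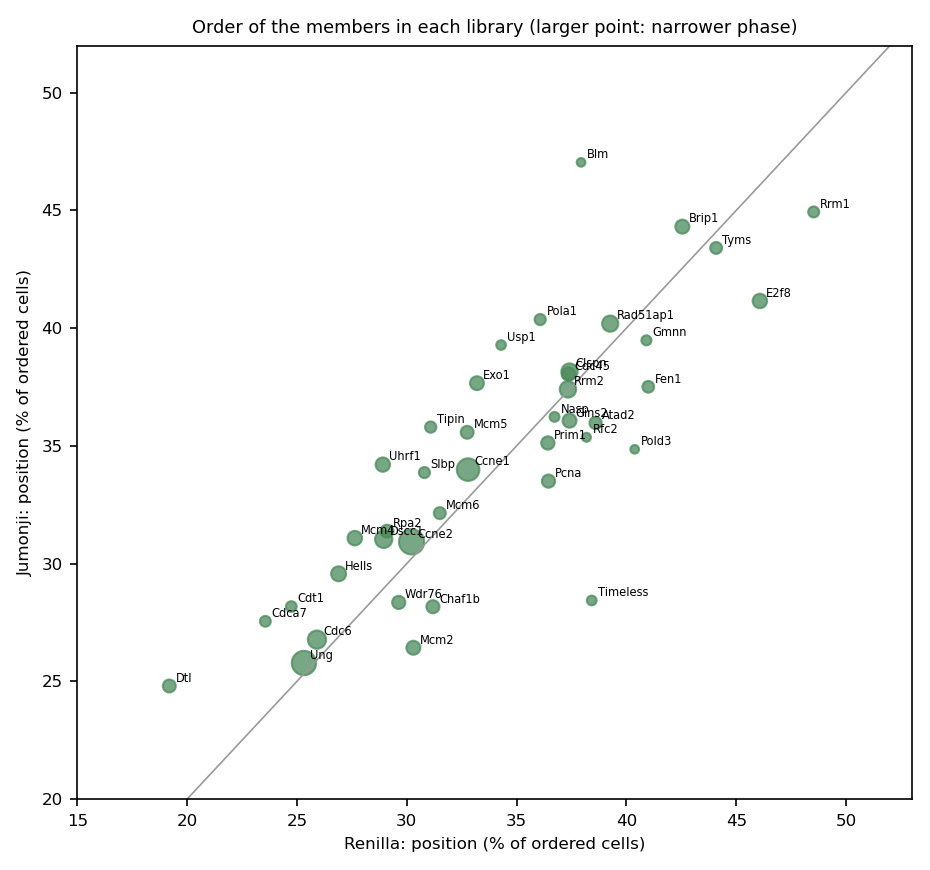
Position of each gene along the cell cycle order in the Renilla library (horizontal) and the Jumonji library (vertical), in percent of ordered cells; the line marks equal positions and larger points are more concentrated genes. Dtl lies at the early end (19.2% and 24.8%) and Rrm1 near the late end (48.5% and 44.9%).

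The earliest genes by mean position were Dtl, at 19.2% in Renilla cells and 24.8% in the Jumonji library, Ung, at 25.3% and 25.8%, and Cdca7, at 23.6% and 27.5%. The other licensing genes Cdc6 (25.9% and 26.8%) and Cdt1 (24.7% and 28.2%) came next. The latest were Rrm1, at 48.5% and 44.9%, Tyms, at 44.1% and 43.4%, and E2f8, at 46.1% and 41.2%. The role groups were spread along the order: of the licensing and helicase genes, Cdc45 (37.4% and 38%), Gins2 (37.4% and 36.1%) and Gmnn (40.9% and 39.5%) lay in its later part, and Rrm2 (37.3% and 37.4%) lay before the other nucleotide supply genes. Ccne2 (30.2% and 30.9%) and Ccne1 (32.8% and 34%) lay near Pcna (36.5% and 33.5%), as did Mcm5 (32.7% and 35.6%) and Mcm6 (31.5% and 32.1%). Ccne2 and Ung were the most concentrated, at 0.70 and 0.76 and at 0.66 and 0.75, and Pold3 (0.10 and 0.28) and Blm (0.08 and 0.31) the least in the Renilla library.

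The libraries, ordered apart, gave like positions: 41 of 41 genes differed by less than 1 bin width (12.5% of the order), the median difference was 2.81% and the largest was 9.99%, for Timeless. All positions lay from 19.2% to 48.5% in Renilla cells and from 24.8% to 47% in the Jumonji library. In so narrow a range, the count within 1 bin width says little about the order among the members. Across the 41 genes Spearman's rho between libraries was 0.81, a description across genes that share cells. Without the cells of high late myeloid score, 38 of 41 were within 1 bin width. Neighbours a few percent apart are not separated: under the alternative orderings Dtl ranged from 18.7% to 19.4% in Renilla cells and from 23.7% to 26.9% in the Jumonji library, but Blm ranged from 42.1% to 62.7% in the latter. Every one of the 41 genes was more concentrated in the Jumonji library, with medians of 0.29 and 0.41, and 34 were so without the cells of high late myeloid score. In that setting the gap was narrower for most genes. For Mcm2 it went from 0.30 and 0.45 to 0.30 and 0.31, while for Brip1 it widened from 0.24 and 0.51 to 0.24 and 0.65. The setting left 39 and 168 thinned Jumonji cells of low and middle score, against 332 and 219 Renilla cells. How cell number affects the concentration was not tested.

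**Figure D4:**
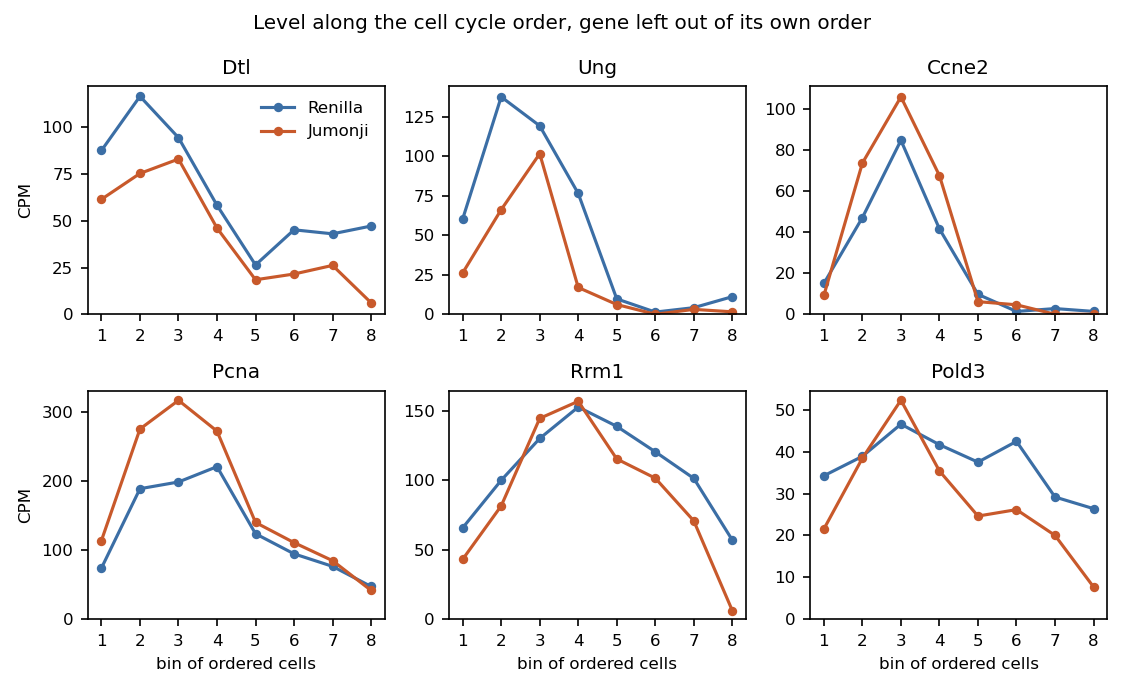
Level in CPM of 6 genes along the 8 bins of ordered cells, 72 or 73 cells a bin in Renilla cells and 65 in the Jumonji library. Dtl and Ung are high early, Ccne2 peaks in bin 3, Rrm1 is highest in bin 4, and Pold3 varies least.

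Seen bin by bin, Ung stood at 60.3, 137.5, 119 and 76.4 CPM in bins 1 to 4 of the Renilla library and at 26.2, 66.2, 102 and 16.9 CPM in those of the Jumonji library. It was lower in the latter in each of these bins. Ccne2 stood at 15.1, 47.2, 84.9 and 41.7 CPM in Renilla cells and at 9.23, 73.8, 106 and 67.7 CPM in the Jumonji library, lower in bin 1 and higher in bins 2 to 4. Pcna was higher in the Jumonji library in bins 1 to 4, where it stood at 114, 275, 317 and 272 CPM against 74, 189, 199 and 221 CPM.

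The last bin differed most between libraries. In bin 8 the members summed to 1535 CPM in Renilla cells and 518.5 CPM in the Jumonji library, and G2/M genes to 5178 and 2020 CPM. In the Jumonji library 89.2% of its 65 cells were of high late myeloid score, and their median depth was 14917 UMIs before thinning. The part of these cells in the higher concentrations of the Jumonji library was tested only by leaving out cells of high late myeloid score, as given above.

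Position and ratio were then set side by side. Of the 10 earliest members 9 had a whole-library ratio below 0, with a median of -0.22, and of the 10 latest 5 did, with a median of -0.01, beside 29 of all 41 members and 5560 of 9922 genes. Across the 41 genes Spearman's rho between mean position and log2 ratio was 0.40, again a description across genes.

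Maturation was measured by the summed UMIs of 16 late myeloid genes per 10000 UMIs of a cell, none of them a member, 15 of which were found. Cells of both libraries were cut together into 3 equal parts, at 3.88 and 9.39 UMIs per 10000, which are ranges of a score and not cell types. The low, middle and high parts held 354, 224 and 30 Renilla cells and 40, 170 and 365 Jumonji cells, so each library was thin in 1 end; 89 and 8 Renilla cells and 19 and 35 Jumonji cells lay within 10% of the limits.

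In both libraries the summed level was lower in cells of high late myeloid score. For the Renilla library the median of the member ratios, given below, did not keep this direction with parts cut within that library. The summed level was not taken for those parts. Summed levels in the low, middle and high parts were 3310, 3488 and 1904 CPM in Renilla cells and 3456, 3453 and 2846 CPM in the Jumonji library. Per cell, the median was 32, 33 and 16.5 member UMIs per 10000 in Renilla cells and 38.1, 31.8 and 21.3 in the Jumonji library. Depth was lower in the high part as well, with medians of 17660 and 17911 UMIs. From low to high, 7 of 41 genes in the Jumonji library were at least 1.5-fold lower (11.3% of all genes) and 0 were higher (16.6%), with a median log2 ratio of -0.31 beside -0.008 for all genes. In the Renilla library 32 were lower (30.5% of all genes) and 0 higher (12.5%), with a median of -0.92 beside -0.22. The Renilla value rests on 30 cells, and was -0.45 when cells were thinned to equal depth and 0.041 with parts cut within the library.

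**Figure D5:**
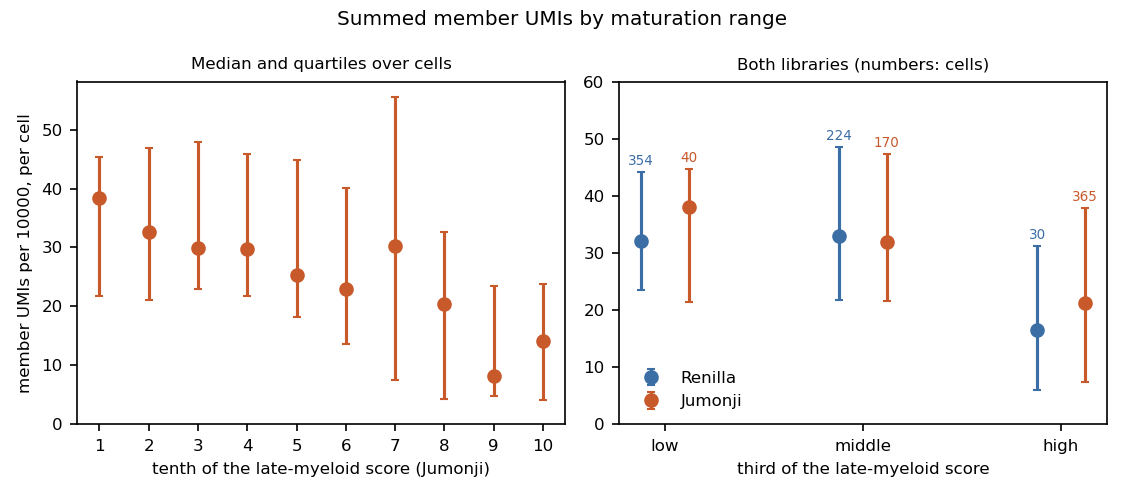
Summed member UMIs per 10000 UMIs of a cell, as the median (point) and quartiles (bars) over cells; left, 10 equal steps of the late myeloid score within the Jumonji library, and right, the 3 parts of the score in both libraries with cell numbers. Medians in the Jumonji library run from 38.4 in step 1 to 8.11 in step 9 and 14.1 in step 10.

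In the Jumonji library the genes at least 1.5-fold lower in the high part included Pola1 (34.1 CPM in the low part and 17.5 CPM in the high part, log2 ratio -0.96), Blm (32.5 and 17.9 CPM, -0.86), Timeless (40.4 and 24.1 CPM, -0.75), Gins2 (95.1 and 57.3 CPM, -0.73), Cdt1 (47.5 and 29.1 CPM, -0.71) and Mcm4 (79.2 and 51.4 CPM, -0.62), each with an interval below 0. The remaining one, Dscc1, rested on 14 UMIs in the low part. Tipin, the best counted, was at 413 and 280 CPM (-0.56, -0.70 to -0.42). Others were closer: Slbp was at 192 and 200.3 CPM (0.06, -0.14 to 0.26), Gmnn at 209 and 195 CPM (-0.10) and Pcna at 173 and 159 CPM (-0.12), all with intervals that held 0. In the Renilla library Slbp also stood apart, at 150 CPM in the low part and 160 CPM in the high part (0.09, -0.24 to 0.40), while Pcna was at 130 and 61.8 CPM (-1.07).

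A finer cut was added within the Jumonji library, where cells were numerous. In 10 equal steps of the score, the median cell held 38.4 member UMIs per 10000 in step 1, 25.3 in step 5, 30.3 in step 7, 8.11 in step 9 and 14.1 in step 10, so the medians were lowest in steps 9 and 10. Step 10 against steps 1 to 5 had 20 of 41 genes at least 1.5-fold lower, but so were 24% of all genes, and the medians were -0.58 and -0.12. The median depth was 29068 UMIs in step 1 and 11428 UMIs in step 10. The share of cells scoring high for the set was 34.8% in steps 1 to 5, 30.9% in steps 6 to 8, 12.5% (5 of 40 cells, 4.19 to 26.8) in step 9 and 19.4% (7 of 36 cells, 8.19 to 36) in step 10. The intervals of these shares are wide and overlap those of steps 1 to 5 for step 10, and no test of the shares was made.

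Between the libraries within each part of the score, the members were near equal in the low and middle parts. The parts were not matched exactly: median late myeloid UMIs per 10000 were 2.49, 4.90 and 19.1 in Renilla cells and 2.98, 6.67 and 23.4 in the Jumonji library. Primary granule genes also differed, at 5881, 5443 and 4363 CPM against 2875, 2806 and 2239 CPM. The median log2 ratio, Jumonji over Renilla, was 0.08 in the low part, with 1 member at least 1.5-fold higher (5.43% of all genes) and 1 lower (11.5%), and -0.11 in the middle part, again with 1 higher (6.72%) and 1 lower (5.16%). The lower ones were Cdca7 in the low part (-0.78) and Ung in the middle part (-0.61), and the higher ones Ccne2 (0.63) and Brip1 (0.80). In the high part the median was 0.61 and 21 of 40 members passing 50 UMIs were at least that much higher (21.1% of all genes) and 0 lower (7.5%), with the Renilla value from 30 cells. Pcna was higher in all 3 parts (0.41, 0.44 and 1.36), as were Slbp (0.36, 0.24 and 0.32) and Gmnn (0.40, 0.18 and 0.59). Ung was lower in the low and middle parts (-0.51 and -0.61), and in the high part its ratio was 0.95, with an interval from -0.13 to 2.28 and 7 Renilla UMIs. Cdca7 had ratios of -0.78, -0.33 and 0.80 and Cdt1 of -0.23, -0.37 and 0.09 in the low, middle and high parts. In the high part both intervals held 0 (-0.03 to 1.77 and -0.66 to 0.96), on 12 and 15 Renilla UMIs, so the direction there is not settled.

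Other genes of replication, from a list with no member in it, had a lower median ratio than the members. Their intervals lay below 0 for 29 (30.1% of all genes) and above 0 for 3 (24.8%), with a median log2 ratio of -0.23. The background genes were not matched to them for counts. Of 58 such genes, 57 reached 50 UMIs. Of these, 0 passed 1.5-fold upwards and 6 downwards, against 11% and 9.04% of all genes, so the lower count was near that share. Among the 6 were Tk1, the thymidine kinase of the salvage path (87.9 and 44.9 CPM, -0.97), Fancd2 of the Fanconi pathway (11 and 6.48 CPM, -0.77), the checkpoint kinase Atr (15.2 and 8.98 CPM, -0.76) and the polymerase epsilon subunit Pole3 (72.1 and 44.3 CPM, -0.70). Of 15 genes of the E2F and retinoblastoma families, E2f2, an activator, was higher (15.1 and 24.5 CPM, 0.70) and E2f5, a repressor with 44 and 25 UMIs, was lower (3.05 and 1.95 CPM, -0.64, -1.41 to 0.10), with a median of -0.18. The 15 held 1 higher and 1 lower call, beside 11% and 9.04% of all genes.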

How the data were processed

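The files hold 2 libraries, 1 per guide, of mouse MLL-AF9 Cas9 leukaemia cells. The authors deposited UMI counts per gene and cell barcode, made with Cell Ranger 1.3.1 on mm10, per the submitters' processing notes; the annotation and barcode filter were not given in the sources used here. Barcodes under 500 genes or over 10% mitochondrial UMIs were dropped (608 and 575 remained). Counts were summed per library and scaled to CPM. A gene needed 50 UMIs over both libraries, and a 1.5-fold difference was called by size. Log2 ratios have exact conditional binomial 95% intervals, shares exact Clopper-Pearson intervals; both cover counting error only. Shares, co-expression and order used cells thinned once to 10000 UMIs (seed 11), which left out 29 and 55 cells. Scrublet marked 9 and 1 cells as doublets, the latter 0.174% of its library, and they were kept. Named genes were all members, with full values for those 1.5-fold apart, the 2 most counted of each role and the 3 earliest and latest; printed promoters were limited to windows outside the annotated gene. The members and lists were chosen with earlier results of these data known. The counting intervals and the ordering were run on simulated data. The simulated counts held counting error only, so variation between cells was not covered. All simulated cells were cycling and all simulated members were equally strongly phased, unlike the cells here. Python 3.11.15, numpy 2.4.6, scipy 1.17.1, pandas 2.3.3 and scanpy 1.11.5 were used. Alternatives covered the cell filter, doublets, scaling, minimum, weighting, score cuts, thinning, bins and motif. Some genes of the lists are not reported here.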

Additional observations from a re-analysis of the deposited data

How the results depend on the processing

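No paired analysis was possible because each group holds 1 library. For the same reason no library could be left out. Of 99 alternative values of the main results, 68 moved by less than the spread used, 30 moved and 1 reversed. The median member ratio between libraries (-0.07) became 0.24 with the 3 score ranges weighted equally and 0.17 in cells high for the set. Members at least 1.5-fold higher (0) became 5, 1 and 5 with equal ranges, without the high range and in cells high for the set. Lower ones (3) became 0, 0 and 1 in the same settings. Giving every cell equal weight made the lower count 5, and median-of-ratios size factors made it 2. For alternative counts by size, shares over all genes were taken only in cells high for the set and the highest of 10 steps. From low to high late myeloid score, the Renilla median (-0.92) reversed to 0.041 with ranges cut within the library, and was -0.71 with all deposited barcodes, -0.74 with quartiles, -0.37 with ranges of the primary granule score and -0.45 in thinned cells; its lower count (32) became 1, 7 and 16 with within-library ranges, granule ranges and thinning. The Jumonji median (-0.31) became -0.54, -0.11 and -0.58 and its lower count (7) became 17, 4 and 20 with within-library ranges, quartiles and the highest of 10 steps against the lowest 5; granule ranges also gave 4. Median shares became 27.4% and 18.6% (Renilla, Jumonji) at 5000 UMIs per cell and 68.6% and 53.4% without thinning, and median correlations became 0.42 and 0.59 without thinning. The motif NTTNGCGC matched 12 of 31 members instead of 7, and 7.23% of all genes instead of 1.57%. TTTCCCGC or TTTGGCGC matched 9 of 31 members and 1.80% of all genes. The cause of these shifts was not tested. The results in cells high for the set, the highest of 10 steps and the orderings without the high range were added after seeing the data. Depth limits single members: Dscc1 had 240 UMIs in all, and in the high range of the Renilla library Ccne2 and Dscc1 had 1 UMI each.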

Other observations

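Barcodes left out for few genes or many mitochondrial UMIs also held S phase gene RNA. The 43 such Renilla barcodes, with a median of 5694 UMIs, had 1059 member UMIs, or 4193 CPM (95% counting interval 3944 to 4453), beside 3325 CPM in the kept cells. The 77 such Jumonji barcodes, with a median of 4804 UMIs, had 1104 member UMIs, or 2617 CPM (2465 to 2776), beside 3131 CPM in the kept cells. The left-out barcodes thus lay above the kept cells in the Renilla library and below them in the Jumonji library. The difference between libraries was not tested, with 1 library each.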
